A study of Drosophila melanogaster with 18 samples.

Results

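The ovaries of the control flies of 3 germline clone experiments in Drosophila melanogaster were compared by RNA-seq of polyadenylated RNA. The controls are the libraries titled FRT, and they make up 9 of the 18 libraries in the series: 3 of FRT_1764, 3 of FRT_1799 and 3 of FRT_1846, where the number names the experiment. All 9 are labelled as wild type ovary, and the labels speak of biological triplicates per genotype without saying whether replicates shared a vial or a day. Every group had the same larval treatment of 2 h at 37 °C on 2 consecutive days, growth at 25 °C, and 2 to 3 days on yeast before dissection. The labels name no FRT chromosome, no germline marker and no strain background. Each control was made for its own experiment, so the FRT background, the culture and the library preparation cannot be told apart, and every difference given here is a difference between whole groups. The p-values rest on the spread between libraries within groups, pooled over the 3 groups. The p-value of a pair of groups therefore also depends on the spread in the remaining group.

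An ovariole is a row of egg chambers of rising age. In each chamber a germline cyst of nurse cells and an oocyte is wrapped in a somatic follicle epithelium, and the nurse cells load the oocyte with ribosomes, mitochondria and maternal mRNA. Follicle cells make part of the yolk, then the vitelline membrane, and last the chorion of the eggshell, so that RNA of each eggshell layer marks a narrow span of late oogenesis. FRT sites are the targets of the FLP recombinase, which is driven by a heat shock in this method so that dividing germ cells exchange chromosome arms.

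Between 32902738 and 42018393 reads per control library lay on annotated genes. Levels are given in RPKM (reads per kb of gene scaled to library size), in which a gene's length includes its introns for many genes, so that levels of different genes are only roughly comparable. In all, 7418 of the 15682 listed genes averaged at least 1 RPKM over the 9 controls and were tested, 5024 averaged at least 10, and 86 at least 1000. The 100 most abundant genes of a library took 27.4% to 33.04% of its reads and the 1000 most abundant took 63.5% to 67.6%. Replicates of a group correlated at 0.987 to 0.997 across tested genes (log2 scale), and libraries of different groups at 0.914 to 0.963. FRT_1846 replicates lay farthest apart, with a median SD of 0.093 on the log2 scale, against 0.063 in FRT_1764 and 0.056 in FRT_1799.

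The most abundant transcript was mt:lrRNA, the large mitochondrial ribosomal RNA, at 33535, 45073 and 34830.5 RPKM in FRT_1764, 17643, 19104 and 19620.4 in FRT_1799 and 32884, 42066 and 36821 in FRT_1846. The lowest value in FRT_1764 or FRT_1846 was above the highest in FRT_1799. Of the 20 genes with the highest mean RPKM, 5 are encoded by the mitochondrial genome (mt:lrRNA, mt:CoIII, mt:CoI, mt:ATPase6 and mt:Cyt-b), 6 are eggshell genes (Vm34Ca, Vm26Aa, Vm26Ab, Cp15, Cp38 and Cp36), 5 are ribosomal protein genes (RpL41, RpLP2, RpL21, RpS28b and RpLP1), and 2 are yolk protein genes (Yp2 and Yp1). The other two are dhd, which encodes a maternal thioredoxin needed to replace protamines on sperm chromatin, and FBgn0000556, which the annotation used here does not name. When reads were divided by exon length alone, 16 of these 20 remained among the 20 most abundant, and by plain share of reads 12 did.

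**Figure D1:**
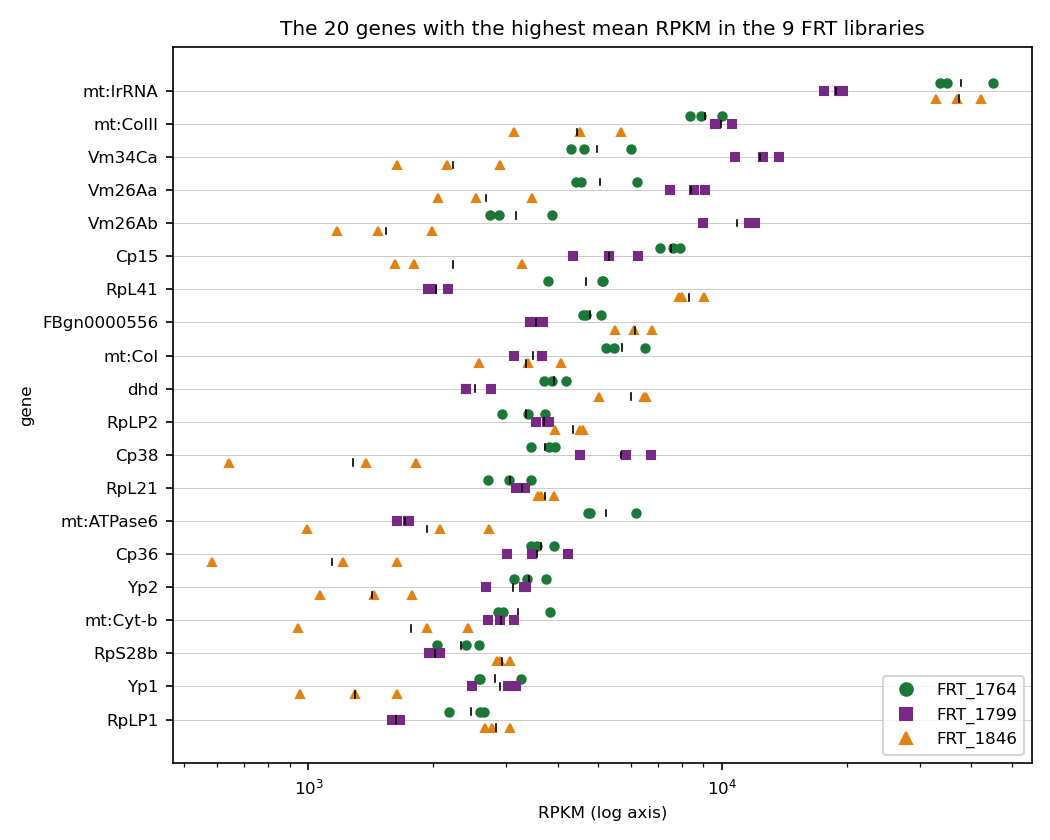
RPKM (log axis) of the 20 genes with the highest mean over the 9 FRT control libraries, 1 row per gene and 1 point per library, with circles for FRT_1764, squares for FRT_1799 and triangles for FRT_1846. Short black lines are group means. The 3 triangles of the eggshell and yolk genes lie left of all other points, while those of RpL41 and dhd lie right of them.

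Maternal and germline genes ranged widely in level. dhd was read at 3875, 4187 and 3715 RPKM in FRT_1764, 2404, 2407 and 2763 in FRT_1799 and 5041, 6452 and 6534 in FRT_1846, and the 3 groups did not overlap. Its log2 difference, on the scale of log2(RPKM + 1) as for all differences given here, was -1.24 ± 0.12 (adjusted p = 8.9e-06) for FRT_1799 minus FRT_1846 in limma's moderated test with Benjamini-Hochberg adjustment over the 7418 tested genes, where ± is the standard error. oskar (osk), whose localised mRNA assembles the germ plasm, stood at 184, 190.0 and 206 RPKM in FRT_1764, 244, 242 and 224 in FRT_1799 and 192, 191 and 202 in FRT_1846. Its FRT_1764 and FRT_1846 values overlapped, and its FRT_1799 values lay above both. BicC, a translational repressor in the oocyte, was at 179.8, 172 and 201 RPKM in FRT_1764, 202, 198 and 205 in FRT_1799 and 171, 194 and 209 in FRT_1846, overlapped between all groups and was called in no comparison.

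CycB, the mitotic cyclin stored in the egg, had 488, 457 and 494 RPKM in FRT_1764, 592, 584 and 606 in FRT_1799 and 568, 611 and 682 in FRT_1846. All 3 FRT_1764 values were lower than those of FRT_1799, with a log2 difference of -0.31 ± 0.071 (adjusted p = 0.0037), or of -0.65 with quantile normalization. The piRNA pathway gene mael, which silences transposons in the germline, was at 57, 54.7 and 60.9 RPKM in FRT_1764, 68.6, 62 and 66.7 in FRT_1799 and 63.8, 66 and 73.1 in FRT_1846, with the FRT_1764 values below all others and those of FRT_1799 and FRT_1846 overlapping. geminin, the inhibitor of replication licensing, was at 153, 141 and 138 RPKM in FRT_1764, 140.2, 136 and 144 in FRT_1799 and 183, 193 and 197 in FRT_1846. For geminin the FRT_1846 values were above the rest, and those of FRT_1764 and FRT_1799 overlapped.

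The defining markers of other tissues were low. None of the 14 gut, 10 testis and sperm, 5 neuron and 3 spermatheca genes that are in the table reached a mean of 1 RPKM. Of 10 hemocyte genes in the table, 2 were tested, both collagen IV subunits that follicle cells also make. Col4a1 had 22.9, 25.3 and 23 RPKM in FRT_1764, 21.9, 23.9 and 19.3 in FRT_1799 and 29.6, 20 and 19.3 in FRT_1846, with overlapping groups. Of 9 fat body genes in the table, 3 were tested. Muscle genes, as the ovary has a muscle sheath, were present: 10 of 14 in the table were tested.

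The 3 groups differed in most genes. In the F test over the 3 groups, 6459 of 7418 tested genes (87.1%) had an adjusted p under 0.05 (limma), and 1178 (15.9%) of all tested genes were also at least 2-fold apart between some pair of groups. FRT_1764 and FRT_1799 differed in 5038 genes (67.9%), of which 2304 were higher in FRT_1764 and 2734 lower. FRT_1764 and FRT_1846 differed in 4463 (60.2%), with 1416 higher in FRT_1764 and 3047 lower. The widest gap was between FRT_1799 and FRT_1846, with 5799 genes (78.2%), of which 2532 were higher in FRT_1799 and 3267 lower. At least 2-fold differences were held by 373 (5.03%), 429 (5.78%) and 935 (12.6%) genes in these 3 comparisons, in that order. The values of the 2 groups did not overlap for 77.0%, 64.3% and 79.7% of tested genes, so an absence of overlap was common.

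The authors scaled each experiment on its own, and the median tested gene of the table was shifted between groups by -0.029, -0.11 and -0.089 (log2) in the same order. The share of called genes that were higher was 45.7%, 31.7% and 43.7% as deposited, and 50.5%, 54.4% and 51% when every library was set to a common median. In a principal component analysis of the tested genes, the first component (65.1% of the variance) placed FRT_1764 libraries at -3.04 to 2.59, FRT_1799 libraries at 28.8 to 32.6 and FRT_1846 libraries at -32.3 to -28.9. The second (23.5%) set FRT_1764 at 20.6 to 22.3, FRT_1799 at -11.9 to -8.70 and FRT_1846 at -11.9 to -10.04.

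Eggshell genes set FRT_1846 apart from both other controls. All 9 chorion protein genes, which lie in clusters on X and 3L that follicle cells amplify, were at least 2-fold higher in FRT_1764 than in FRT_1846. Such 2-fold calls with the same direction covered 2.12% of tested genes in FRT_1764 minus FRT_1846 and 4.68% in FRT_1799 minus FRT_1846, where again all 9 were called. The median chorion log2 difference was 1.83 and 2.26, against -0.11 and -0.089 over all tested genes. Together the chorion genes took 2.03% ± 0.062 of reads in FRT_1764 (SD, n = 3 here and below), 2.39% ± 0.2 in FRT_1799 and 0.567% ± 0.22 in FRT_1846. In bulk ovaries, fewer late follicle cells and less chorion RNA per cell cannot be told apart.

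Cp18, a structural chorion protein, was at 2469, 3084 and 2274 RPKM in FRT_1764, 2502, 1814 and 2437 in FRT_1799 and 599, 218 and 194 in FRT_1846. FRT_1764 and FRT_1799 overlapped, and the highest FRT_1846 value was far below both. The log2 difference was 3.14 ± 0.37 (adjusted p = 0.0001) for FRT_1764 minus FRT_1846. Cp15 was at 7087, 7894 and 7604 RPKM in FRT_1764, 4363, 5326 and 6239 in FRT_1799 and 3275, 1617 and 1802 in FRT_1846, again with the FRT_1846 libraries lowest, and differed by 1.83 ± 0.24 (adjusted p = 0.00021) in the same comparison. Cp7Fc, which lies with Cp36, Cp38, Cp7Fa and Cp7Fb within an antisense gene, CG33223, had 794, 843 and 783 RPKM in FRT_1764, 1657, 2212 and 1533 in FRT_1799 and 197, 273 and 89.8 in FRT_1846. Its 3 groups did not overlap, with a log2 difference of -1.14 ± 0.33 (adjusted p = 0.013) for FRT_1764 minus FRT_1799 and 3.39 ± 0.33 (adjusted p = 1e-05) for FRT_1799 minus FRT_1846. With all 18 libraries in 1 fit the first of these had an adjusted p of 0.27. The sources used here do not say that counting used strand, so reads of CG33223 and of these chorion genes cannot be told apart.

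Vitelline membrane genes were highest in FRT_1799, without overlap with the other groups for all but Vm32E, whose FRT_1799 and FRT_1764 values overlapped. In FRT_1764 minus FRT_1799, 0 of 7 tested members were higher and 6 lower (5 of them at least 2-fold, where 2.70% of tested genes were), with a median of -1.21 against -0.029 over all tested genes. In FRT_1799 minus FRT_1846, 7 of 7 tested members were higher and 0 lower, where 34.1% of tested genes were higher, with a median of 2.21. They took 0.944% ± 0.18 of reads in FRT_1764, 2.17% ± 0.25 in FRT_1799 and 0.448% ± 0.14 in FRT_1846.

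Vm26Ab, a major vitelline membrane protein, was at 2883, 2745 and 3875 RPKM in FRT_1764, 11977, 11629 and 8971 in FRT_1799 and 1985, 1469 and 1169 in FRT_1846. No groups overlapped, and its log2 difference was -1.78 ± 0.21 (adjusted p = 6.4e-05) for FRT_1764 minus FRT_1799 and 2.84 ± 0.21 (adjusted p = 1.7e-06) for FRT_1799 minus FRT_1846. Vm34Ca, another major component, was at 4318, 4628 and 6012 RPKM in FRT_1764, 13729.9, 12525 and 10729.8 in FRT_1799 and 2902, 2159.7 and 1635 in FRT_1846. It followed the same order without overlap.

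**Figure D2:**
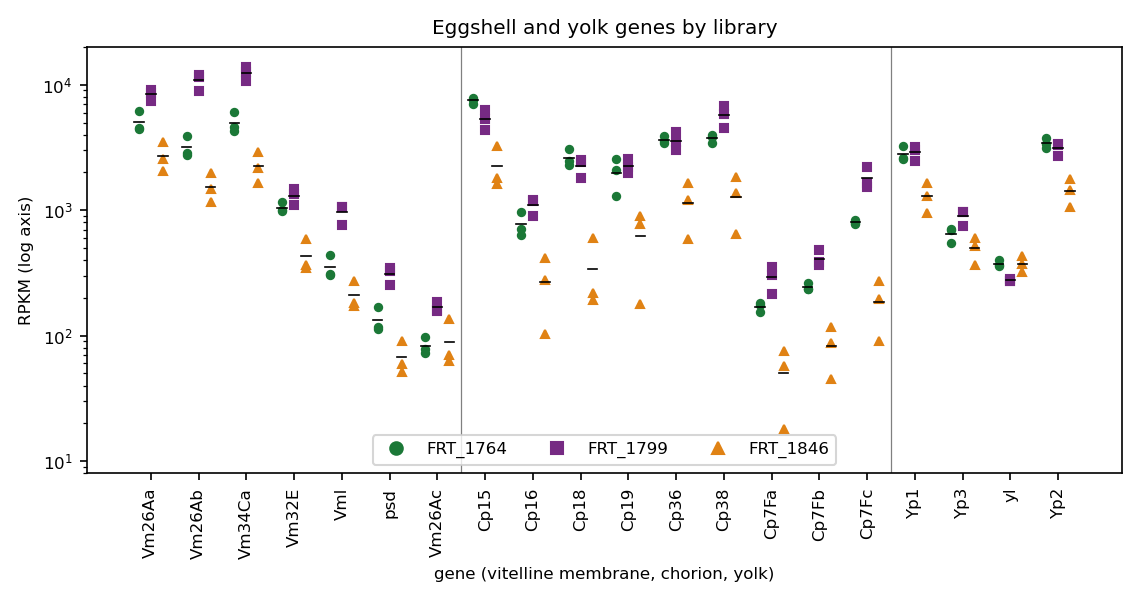
RPKM (log axis) of 7 vitelline membrane, 9 chorion and 4 yolk genes in each FRT control library, with circles for FRT_1764, squares for FRT_1799 and triangles for FRT_1846, in that order within a gene, and short black lines at group means. For the chorion genes the triangles lie lowest. For the vitelline membrane genes the squares lie highest, except that 1 square of Vm32E lies among the circles.

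Femcoat, an eggshell gene of late follicle cells, had 219.5, 329.8 and 277 RPKM in FRT_1764, 609, 535 and 606 in FRT_1799 and 94.8, 79.8 and 22.3 in FRT_1846. The groups did not overlap, and its log2 difference was -1.10 ± 0.44 (adjusted p = 0.05002) for FRT_1764 minus FRT_1799, which missed the threshold but had an adjusted p of 0.00018 without the third of the FRT_1846 libraries, and 3.37 ± 0.44 (adjusted p = 7.2e-05) for FRT_1799 minus FRT_1846. Pxt, a cyclooxygenase-like enzyme that acts in follicle maturation, went the other way, at 445, 519 and 472 RPKM in FRT_1764, 298, 284 and 309 in FRT_1799 and 474, 678 and 663 in FRT_1846. Its FRT_1799 values were below all others. The yolk protein genes Yp1 and Yp2, which follicle cells and fat body express, were lower in FRT_1846. Of the 4 tested yolk genes, which include Yp3 and yl, 2 were higher and 0 lower in FRT_1764 minus FRT_1846, where 19.1% of tested genes were higher. In FRT_1799 minus FRT_1846, 3 were higher and 1 lower, where 34.1% of tested genes were higher. Yp2 was at 3365, 3134 and 3748 RPKM in FRT_1764, 3355, 3324 and 2688 in FRT_1799 and 1776, 1438 and 1064 in FRT_1846, with FRT_1764 and FRT_1799 overlapping and FRT_1846 below both, and its log2 difference was 1.29 ± 0.18 (adjusted p = 0.00024) for FRT_1764 minus FRT_1846. The yolk receptor gene yl, made in the germline and named here after its values were seen, was at 359, 397 and 365 RPKM in FRT_1764, 274, 273 and 284 in FRT_1799 and 323, 431 and 372 in FRT_1846. Its FRT_1846 values overlapped those of FRT_1764.

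Regulators of follicle cells moved less. In FRT_1799 minus FRT_1846, 9 of 12 tested members were higher and 0 lower, at a median of 0.41, where 34.1% of tested genes were higher. traffic jam (tj), a transcription factor of somatic gonad cells, was at 35, 33.9 and 36 RPKM in FRT_1764, 56.1, 56 and 45.8 in FRT_1799 and 30.3, 26.8 and 22.7 in FRT_1846, with no overlap between groups. slbo, which marks migrating border cells, was at 0.627, 0.581 and 0.682 RPKM in FRT_1764, 1.76, 2.2 and 1.6 in FRT_1799 and 0.66, 0.603 and 0.516 in FRT_1846, with FRT_1799 above the others. In FRT_1764 minus FRT_1799, 0 of the 12 follicle regulators were higher and 9 were lower, with 36.9% of tested genes lower.

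The cytoplasmic ribosomal proteins were mostly ordered FRT_1846, FRT_1764, FRT_1799. For cytoplasmic ribosomal proteins, in FRT_1764 minus FRT_1799 62 of 81 tested members were higher and 5 lower (median 0.60; 31.1% of tested genes were higher). In FRT_1764 minus FRT_1846, 2 of 81 tested members were higher and 72 lower (median -0.53, with 41.1% of tested genes lower). In FRT_1799 minus FRT_1846, 2 of 81 tested members were higher and 71 lower (median -1.09, with 44.0% of tested genes lower). The order was the same in their share of reads, which was 11.1% ± 0.94 of reads in FRT_1764, 8.02% ± 0.061 in FRT_1799 and 15.3% ± 0.56 in FRT_1846.

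RpL41 was at 5150.1, 5107 and 3795 RPKM in FRT_1764, 2171, 1989 and 1944 in FRT_1799 and 7866, 9006 and 8010.4 in FRT_1846. Its 3 groups did not overlap, with log2 differences of 1.19 ± 0.13 (adjusted p = 4e-05) and -0.84 ± 0.13 (adjusted p = 0.00049) for FRT_1764 minus FRT_1799 and minus FRT_1846. RpS9 was at 598, 599.9 and 465 RPKM in FRT_1764, 215, 216 and 228 in FRT_1799 and 1472, 1415 and 1311 in FRT_1846, the widest gap among ribosomal proteins, and its FRT_1799 minus FRT_1846 difference was -2.66 ± 0.10 (adjusted p = 6.5e-08). RpLP2, a stalk protein, did not follow this order, at 3390.4, 3725 and 2938 RPKM in FRT_1764, 3556, 3819.9 and 3767 in FRT_1799 and 4518, 4598 and 3948 in FRT_1846, and FRT_1764 and FRT_1799 overlapped.

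With quantile normalization the 3 ribosomal medians were 0.33, -0.25 and -0.53 (log2) and kept their direction. The 1418 tested genes with the least exon length (median 734.5 bp) had medians of 0.032, -0.29 and -0.29, and the 1417 with the most (median 5274 bp) had -0.16, 0.012 and 0.17. Ribosomal protein genes have a median of 927 bp of exon, and the part of gene length in their differences was not tested.

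The elongation factor gene eEF1beta had 919.5, 901 and 825 RPKM in FRT_1764, 464, 476 and 489.6 in FRT_1799 and 1707, 1871 and 1732 in FRT_1846, with no overlap between groups. Translation factors as a list went both ways in FRT_1764 minus FRT_1799 and in FRT_1799 minus FRT_1846. Among them, 20 of 42 tested members were higher and 16 lower in FRT_1764 minus FRT_1799 (median 0.092, and as low as 0.0019 in other scalings), where 31.1% of tested genes were higher and 36.9% lower. 14 of 42 tested members were higher and 25 lower in FRT_1799 minus FRT_1846 (median -0.42, and -0.21 with quantile normalization), where 34.1% of tested genes were higher and 44.0% lower. In FRT_1764 minus FRT_1846 translation factors were mostly lower (median -0.28, and as near 0 as -0.13 in other scalings). Leaving out 1 library gave 3 to 5 higher and 25 to 29 lower there, where 19.1% and 41.1% of tested genes were. Mitochondrial ribosomal proteins also went both ways in FRT_1764 minus FRT_1799, where 21 of 71 tested members were higher and 28 lower. The shares of all tested genes were 31.1% and 36.9%. They were mostly lower in FRT_1764 minus FRT_1846 (median -0.32) and in FRT_1799 minus FRT_1846 (median -0.25). Leaving out 1 library gave 3 to 4 higher and 53 to 58 lower in the former, where 41.1% of tested genes were lower. In the latter it gave 9 to 11 higher and 45 to 48 lower, where 44.0% of tested genes were lower. Among genes of glycolysis, 1 of 10 tested members were higher and 8 lower in FRT_1799 minus FRT_1846 (median -0.77), against the same 44.0% of all tested genes that were lower. Pgk, the phosphoglycerate kinase gene, was at 45.8, 42 and 43.2 RPKM in FRT_1764, 26.2, 26 and 27.8 in FRT_1799 and 72.1, 76.6 and 70.1 in FRT_1846, again with FRT_1846 highest and FRT_1799 lowest. Gapdh2 was called in no comparison, at 1117, 1118 and 1166 RPKM in FRT_1764, 1167, 1092 and 1182 in FRT_1799 and 1134, 1253 and 1139.8 in FRT_1846.

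Nuclear genes of oxidative phosphorylation had medians in the order of the cytoplasmic ribosomal proteins. In FRT_1764 minus FRT_1799, 34 of 62 tested members were higher and 11 lower (median 0.22), where 31.1% of tested genes were higher. In FRT_1764 minus FRT_1846, 3 of 62 tested members were higher and 48 lower (median -0.32, and as near 0 as -0.15 in other scalings), where 41.1% of tested genes were lower. In FRT_1799 minus FRT_1846, 9 of 62 tested members were higher and 49 lower (median -0.50), where 44.0% of tested genes were lower. Single members did not all share this order. ATPsynbeta, a subunit of the mitochondrial ATP synthase, was at 679, 699 and 636 RPKM in FRT_1764, 408, 396 and 419 in FRT_1799 and 870.2, 945 and 914 in FRT_1846, with no overlap between groups. ATPsynC, another subunit, was at 601, 631 and 624 RPKM in FRT_1764, 634, 599 and 615 in FRT_1799 and 598, 710.4 and 683 in FRT_1846 and overlapped in all 3 pairs.

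Transcripts of the mitochondrial genome had a different order of groups in their share of reads. They took 7.65% ± 0.99 of reads in FRT_1764, 4.64% ± 0.29 in FRT_1799 and 5.94% ± 0.73 in FRT_1846. Genes annotated as rRNA, mt:lrRNA among them, took 4.49% to 5.80%, 2.31% to 2.63% and 4.24% to 5.04% of reads in the same groups. Much of the list's share could thus be rRNA, and the order of the shares does not stand for the other members. In FRT_1799 minus FRT_1846, where FRT_1799 had the smaller share, 8 of 21 tested members were higher and 4 lower. Of all tested genes, 34.1% were higher and 44.0% lower there. In FRT_1764 minus FRT_1846, 14 of 21 tested members were higher and 2 lower (median 0.89), where 19.1% of tested genes were higher. Without the second FRT_1764 library 9 were higher and 3 lower of 19 tested (median 0.82). mt:ND1, a complex I subunit, was at 1021, 1465 and 1336 RPKM in FRT_1764, 1746, 2080.1 and 1973 in FRT_1799 and 228, 439 and 414 in FRT_1846. For mt:ND1 the FRT_1799 values were highest and no groups overlapped, with a log2 difference of 2.48 ± 0.23 (adjusted p = 8e-06) for FRT_1799 minus FRT_1846. mt:ATPase6 was at 4791, 6171 and 4749 RPKM in FRT_1764, 1639.6, 1747 and 1736 in FRT_1799 and 994, 2730.1 and 2076 in FRT_1846, where FRT_1764 was above both other groups, which overlapped. mt:lrRNA, in contrast, was lowest in FRT_1799, so members of the mitochondrial genome list did not share an order.

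**Figure D3:**
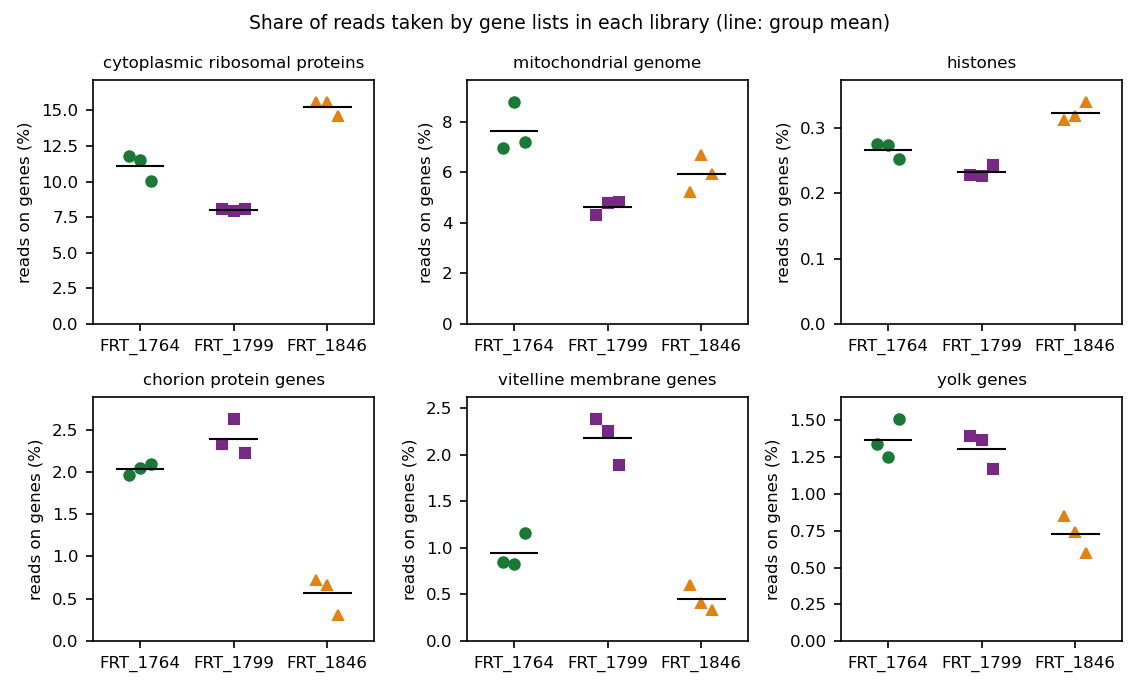
Share of the reads on genes (percent, axes from 0) taken by 6 gene lists in each FRT control library, with circles for FRT_1764, squares for FRT_1799, triangles for FRT_1846 and a line at each group mean. Ribosomal proteins averaged 11.1% in FRT_1764, 8.02% in FRT_1799 and 15.3% in FRT_1846.

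Histone genes were higher in FRT_1846. In FRT_1799 minus FRT_1846, 1 of 100 tested members were higher and 98 lower, with a median of -1.57, where 44.0% of tested genes were lower. 96 of the 100 tested histone genes lie on 2L, the arm of the repeated histone cluster. The near-identical copies of this cluster can share reads, so they are not separate observations. Replication-dependent histone mRNAs lack a poly(A) tail in most cells, and the libraries were made from polyadenylated RNA. Outside this cluster, the H4 replacement gene His4r on 3R was at 355, 374 and 299 RPKM in FRT_1764, 279, 291 and 279 in FRT_1799 and 506, 561 and 546 in FRT_1846, with FRT_1846 above the others. BigH1, the embryonic linker histone, was highest in FRT_1764, at 310.1, 362 and 334 RPKM in FRT_1764, 246, 255 and 289.6 in FRT_1799 and 236, 289 and 287 in FRT_1846. Of the small nuclear RNAs, which also lack poly(A) tails, 1 of 17 tested members were higher and 13 lower in FRT_1764 minus FRT_1846, where 41.1% of tested genes were lower. This list is of spliceosomal RNAs but includes snRNA:7SKa, which is not one. Its median member was low, at 1.74 RPKM in FRT_1764, 0.85 in FRT_1799 and 4.57 in FRT_1846. Copies such as snRNA:U1:21D and snRNA:U1:82Eb could share reads. snRNA:U12 was at 10.9, 10.7 and 7.74 RPKM in FRT_1764, 4.88, 7.75 and 7.7 in FRT_1799 and 31.2, 34.1 and 35 in FRT_1846, with FRT_1846 highest, and it lies antisense to Baldspot.

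Among germline regulators, 10 of 12 early germline genes were higher in FRT_1799 than in FRT_1846, and 1 was lower, with a median log2 difference of 0.67, where 34.1% of tested genes were higher. In FRT_1764 minus FRT_1799, 1 of 12 tested members were higher and 10 lower (median -0.40), where 36.9% of tested genes were lower. otu, which is needed for cyst formation and nurse cell growth, was at 111, 108 and 123 RPKM in FRT_1764, 182, 169 and 165 in FRT_1799 and 79.8, 76.8 and 80.6 in FRT_1846, with no overlap. nanos, a translational repressor that keeps germline stem cells, was at 74.3, 70.8 and 77.4 RPKM in FRT_1764, 134, 129.5 and 123 in FRT_1799 and 73.2, 64.2 and 55.4 in FRT_1846. FRT_1799 lay above the others, and FRT_1764 and FRT_1846 overlapped. Sxl, the sex-determination gene that also acts in germline differentiation, was at 7.31, 7.51 and 7.06 RPKM in FRT_1764, 13.9, 13.3 and 12.2 in FRT_1799 and 6.46, 5.37 and 5.29 in FRT_1846, in the same order as otu.

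Genes of the oocyte and of egg activation went both ways, as tested genes in general did. In FRT_1799 minus FRT_1846, 6 of 26 tested members were higher and 12 lower, with a median of -0.11 as deposited and of up to -0.0064 in other scalings, against 44.0% of tested genes lower and a median of -0.089 over all of them. mtrm, a Polo inhibitor of the oocyte, was at 369, 409.7 and 379 RPKM in FRT_1764, 177, 177 and 196 in FRT_1799 and 384, 540.0 and 559.8 in FRT_1846. Its FRT_1799 values were below all others, with a log2 difference of 1.07 ± 0.13 (adjusted p = 6.9e-05) for FRT_1764 minus FRT_1799. zld, the activator of the zygotic genome, was at 5.33, 5.58 and 6.17 RPKM in FRT_1764, 13.6, 14.2 and 13 in FRT_1799 and 5, 4.55 and 4.69 in FRT_1846, with FRT_1799 above both other groups. The genes pgc and sqd are from another list, that of localised maternal mRNA and germ plasm. In FRT_1799 minus FRT_1846, 8 of its 16 tested members were higher and 2 lower, where 34.1% of tested genes were higher and 44.0% lower. pgc, which keeps RNA polymerase II silent in germ cells, was at 56, 55 and 53.7 RPKM in FRT_1764, 33.9, 34.5 and 38.6 in FRT_1799 and 74.7, 79.1 and 81.1 in FRT_1846. sqd, which localises maternal mRNA, was at 70.9, 73.8 and 78.3 RPKM in FRT_1764, 148, 149 and 129.6 in FRT_1799 and 62.6, 56.7 and 55.3 in FRT_1846. The order of the 3 groups for sqd was the reverse of that for pgc, and neither gene had overlapping groups.

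For the piRNA genes arx and moon the orders were also opposite. arx, a cofactor of Piwi, was at 38.7, 38.7 and 37.9 RPKM in FRT_1764, 78.3, 75.1 and 75.2 in FRT_1799 and 32.8, 31.7 and 33.3 in FRT_1846. moon, which drives transcription of piRNA clusters, was at 51.8, 51.9 and 47.5 RPKM in FRT_1764, 31.6, 30.1 and 35.3 in FRT_1799 and 76.1, 80 and 70.9 in FRT_1846. Neither had overlapping groups, and in FRT_1799 minus FRT_1846 their log2 differences were 1.20 ± 0.038 (adjusted p = 4.2e-08) and -1.20 ± 0.069 (adjusted p = 4.2e-07). Of the 26 tested piRNA genes, 6 were higher in FRT_1799 than in FRT_1846 and 13 were lower, close to the 44.0% of all tested genes that were lower. The list of actin regulators in nurse cells and ring canals held chic, or profilin, at 99, 98.6 and 109 RPKM in FRT_1764, 197, 185 and 180.3 in FRT_1799 and 77.5, 78.2 and 79.2 in FRT_1846, with no overlap between groups, and 5 of 8 tested members were higher and 2 lower in FRT_1799 minus FRT_1846, where 34.1% of tested genes were higher. Among replication genes, dup, a licensing factor, was at 49.7, 50.8 and 44.2 RPKM in FRT_1764, 39, 37.4 and 39.8 in FRT_1799 and 64.9, 85 and 89.2 in FRT_1846. E2f1, a transcription factor of the cell cycle, was at 4.76, 4.9 and 5.62 RPKM in FRT_1764, 11.4, 10.7 and 10.5 in FRT_1799 and 4.03, 4.33 and 4.66 in FRT_1846. Its groups were in the opposite order to those of dup, without overlap. ncd, a kinesin of the meiotic spindle, was highest in FRT_1846 at 38.4, 38.6 and 36 RPKM in FRT_1764, 20.6, 21.7 and 23.6 in FRT_1799 and 44.2, 56.7 and 58.8 in FRT_1846.

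**Figure D4:**
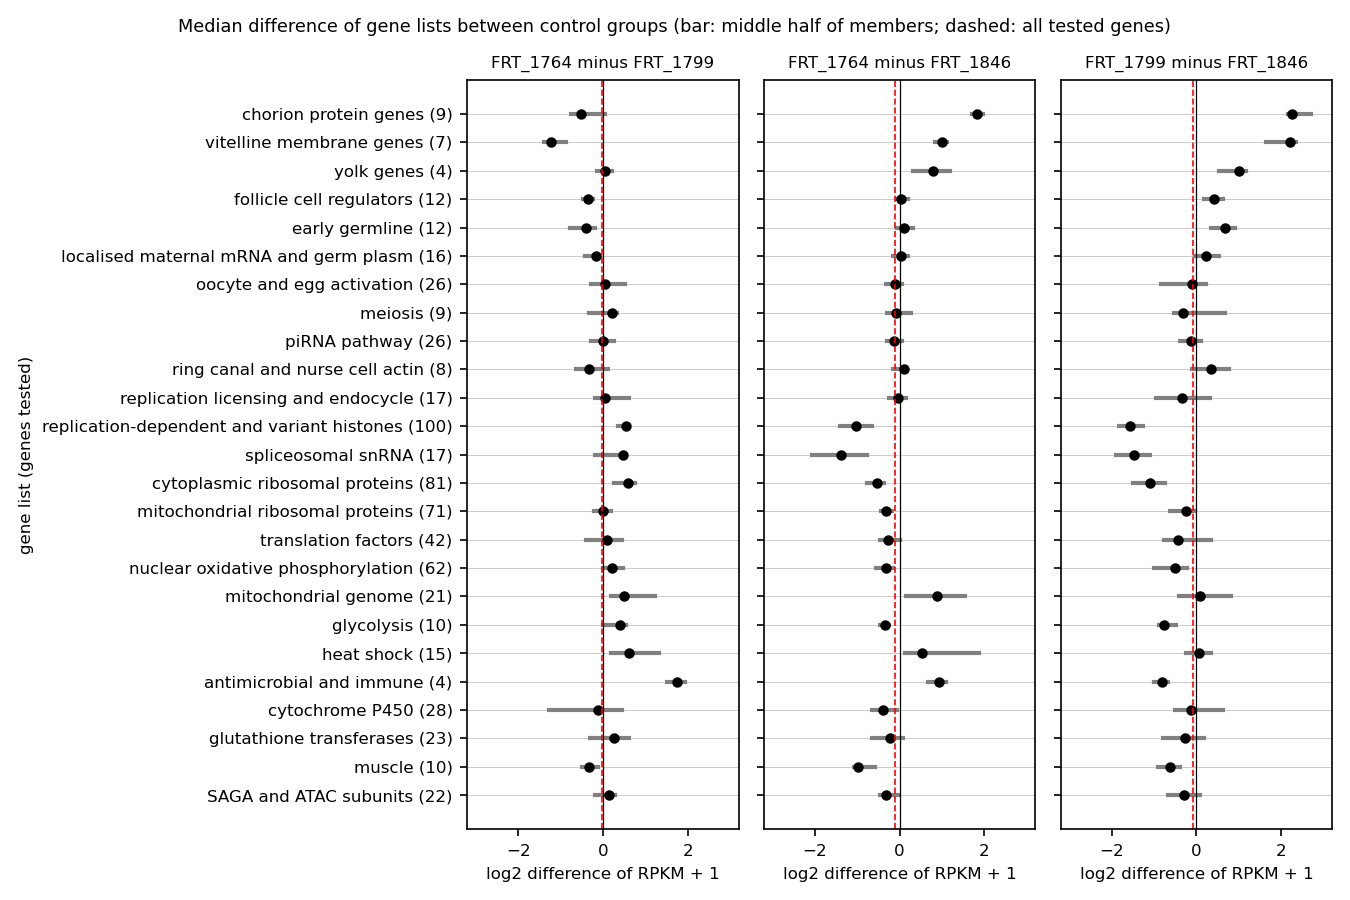
Median log2 difference of 25 gene lists for FRT_1764 minus FRT_1799, FRT_1764 minus FRT_1846 and FRT_1799 minus FRT_1846 (a panel each), with a grey bar from the lower to the upper quartile of the members, a solid line at 0 and a dashed line at the median of all 7418 tested genes (-0.029, -0.11 and -0.089). Chorion genes lie farthest right for FRT_1764 minus FRT_1846 and for FRT_1799 minus FRT_1846.

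Hsp70, the heat shock chaperone, was higher in FRT_1764. Hsp70Aa was at 21.5, 33.6 and 16.4 RPKM in FRT_1764, 1.92, 2.93 and 2.67 in FRT_1799 and 2.61, 1.97 and 2.36 in FRT_1846, and its log2 difference from the mean of the other 2 groups was 2.82 ± 0.19 (adjusted p = 6.1e-06). The lowest FRT_1764 value was far above the highest of the other 6. Hsp70Ab shares its sequence closely with Hsp70Aa and could share reads with it. Of the heat shock genes, 11 of 15 tested members were higher and 0 lower in FRT_1764 minus FRT_1799, where 31.1% of tested genes were higher. In FRT_1764 minus FRT_1846, 9 of 15 tested members were higher and 2 lower, where 19.1% of tested genes were higher. The list also holds Hsp70Bb and Hsp70Bbb, and Hsp70 copies that share reads are not separate observations. Hsp26, an ovary-expressed small heat shock protein, was at 1795, 1933 and 2138 RPKM in FRT_1764, 1155, 1164 and 1251 in FRT_1799 and 1705, 1872 and 2063 in FRT_1846, with FRT_1764 and FRT_1846 overlapping above FRT_1799. Hsp83, the fly Hsp90 gene, was highest in FRT_1846, at 869.7, 872 and 867 RPKM in FRT_1764, 807, 782 and 743 in FRT_1799 and 1086, 1149.8 and 1204 in FRT_1846. All of these libraries come from flies that had the same larval heat shock, and the part of this treatment in the differences was not tested.

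The antimicrobial peptide gene AttA was at 9.79, 5.22 and 1.21 RPKM in FRT_1764, 0.282, 0.482 and 0.347 in FRT_1799 and 1.68, 1.36 and 1.7 in FRT_1846, with a wide spread within FRT_1764 and a log2 difference of 1.95 ± 0.45 (adjusted p = 0.0037) for FRT_1764 minus FRT_1799 and of 1.04 ± 0.45 (adjusted p = 0.072) for FRT_1764 minus FRT_1846. Without the third FRT_1764 library the second of these was 1.67 (adjusted p = 0.00040), and without the first it was 0.52 (adjusted p = 0.24). The first was 3.14 with a pseudocount of 0.1 and 3.53 in limma voom. AttB is a close copy of AttA and could share its reads. Dro, which encodes drosocin, was at 11, 5.71 and 3.43 RPKM in FRT_1764, 2.15, 1.05 and 1.21 in FRT_1799 and 6.75, 5.42 and 3.23 in FRT_1846, where FRT_1764 and FRT_1846 overlapped and FRT_1799 was below both. Only 4 of the 24 immune genes in the table were tested.

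Genes of detoxification included some of the widest differences. Cyp4e2, a cytochrome P450, was at 0.604, 0.87 and 0.713 RPKM in FRT_1764, 25.5, 24 and 22.8 in FRT_1799 and 38.7, 39.7 and 30 in FRT_1846, and FRT_1764 was below both groups with a log2 difference of -4.14 ± 0.09 (adjusted p = 4.8e-09) from their mean. GstD2, a glutathione transferase gene, was at 1.54, 1.12 and 1.48 RPKM in FRT_1799, against 1.9, 27.6 and 21.7 in FRT_1764 and 17.2, 14 and 16.9 in FRT_1846. The first FRT_1764 library was close to the FRT_1799 level, and the log2 difference was -2.61 ± 0.60 (adjusted p = 0.0031) for FRT_1799 from the mean of the other 2 groups, with an adjusted p of 0.082 in limma voom on the reads. GstT4, of the same enzyme family, was at 6.45, 9.13 and 6.25 RPKM in FRT_1764, 1.51, 1.32 and 1.69 in FRT_1799 and 20.6, 22.5 and 15.9 in FRT_1846, and no groups overlapped. Ugt36E1, a UDP-glycosyltransferase, was at 35.9, 35.2 and 35.9 RPKM in FRT_1764, 12.6, 12.2 and 12.4 in FRT_1799 and 5.72, 6.7 and 4.8 in FRT_1846, with FRT_1764 highest.

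Muscle genes were higher in FRT_1846. Mlc2, a myosin light chain, was at 4.06, 2.79 and 1.99 RPKM in FRT_1764, 4.67, 5.12 and 3.72 in FRT_1799 and 13, 10.2 and 8.74 in FRT_1846, with FRT_1846 above both and a log2 difference of -1.58 ± 0.19 (adjusted p = 0.00014) for FRT_1764 minus FRT_1846. Mp20, a calponin-like muscle protein, was at 17.1, 16.5 and 12.3 RPKM in FRT_1764, 17.1, 18.4 and 14.7 in FRT_1799 and 38.1, 29.2 and 25 in FRT_1846, also highest in FRT_1846. Of the 10 tested members, 1 was higher in FRT_1764 than in FRT_1846 and 8 were lower, where 41.1% of tested genes were lower. Tm1, a tropomyosin gene that ovaries also express outside muscle, was the exception, at 15.9, 17.4 and 17.8 RPKM in FRT_1764, 32.9, 33.4 and 28.6 in FRT_1799 and 13.3, 12.4 and 12.2 in FRT_1846. The female fat body gene fit was at 2.44, 0 and 0.771 RPKM in FRT_1764, 1.31, 1.07 and 0.701 in FRT_1799 and 14.7, 13.4 and 0.553 in FRT_1846. The third FRT_1846 library was at the level of the other groups, and the log2 difference for FRT_1764 minus FRT_1846 was -1.95 ± 0.80 (adjusted p = 0.06), or -3.04 (adjusted p = 0.00051) without that library. The other tested fat body genes were less far apart. Lsp2 averaged 1.71 RPKM in FRT_1764, 0.452 in FRT_1799 and 1.95 in FRT_1846, and apolpp 2.12, 0.859 and 2.53. Of the 3 tested fat body genes, 0 were called in FRT_1764 minus FRT_1846, where 41.1% of tested genes were lower. The amount of muscle or fat tissue in the dissections was not measured, and its part in the differences was not tested.

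The genes that set 1 control most apart were taken from those that were called, did not overlap the other 6 libraries and differed at least 2-fold from the mean of the other 2 groups, and the 5 most positive and 5 most negative differences per group were candidates for naming. In FRT_1764, 68 genes (0.917% of tested genes) were higher by these criteria and 81 (1.09%) lower, and some of them were nearly silent in 1 control. CG12129, which lies antisense to oys, was at 0.151, 0.159 and 0.166 RPKM in FRT_1764, 38.3, 36.4 and 37.9 in FRT_1799 and 59.4, 62.7 and 64.4 in FRT_1846. CG5339, antisense to CG17658, was at 1.88, 1.99 and 1.81 RPKM in FRT_1764, 44.2, 41.2 and 46.1 in FRT_1799 and 53.1, 58.7 and 59.8 in FRT_1846. Both lie on 2R, as does Cyp4e2, and the FRT_1764 values were the lowest of the 3 groups for all of them. CG9988 had 305, 398 and 266 reads in FRT_1764 and 0 reads in all 6 other libraries, which is at least 82.5-fold higher than FRT_1799 and at least 73.4-fold higher than FRT_1846 when 3 reads per library are taken as the limit of 0. CG17470 had 5.4, 5.54 and 6.38 RPKM in FRT_1764, 0.217, 0.272 and 0.183 in FRT_1799 and 0 reads in FRT_1846, so it was at least 51.8-fold higher in FRT_1764 than in FRT_1846 by the same limit.

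In FRT_1799, 209 genes (2.82%) were higher by these criteria and 270 (3.64%) lower. dany was at 13.6, 14.1 and 15.2 RPKM in FRT_1799, against 0.178, 0.146 and 0.196 in FRT_1764 and 0.0949, 0.157 and 0.302 in FRT_1846, so that only the FRT_1799 libraries reached 1 RPKM. CG14715, antisense to CG18476, was at 11.6, 9.38 and 9.54 RPKM in FRT_1799, against 120.3, 110.2 and 114 in FRT_1764 and 121, 132 and 134 in FRT_1846, with FRT_1799 lowest. Ilp8, an insulin-like peptide gene, was at 12.2, 14.8 and 13.9 RPKM in FRT_1799, against 36.8, 50.8 and 43.2 in FRT_1764 and 174, 175 and 124 in FRT_1846, and its groups did not overlap, with FRT_1846 highest and a log2 difference of -2.51 ± 0.13 (adjusted p = 3.3e-07) for FRT_1799 from the mean of the others. CG9928 was at 12.8, 10.5 and 9.45 RPKM in FRT_1799, against 0.807, 0.548 and 0.715 in FRT_1764 and 1.52, 1.06 and 0.399 in FRT_1846, with FRT_1799 highest.

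In FRT_1846, 305 genes (4.11%) were higher by these criteria and 153 (2.06%) were lower. hpRNA:CR33940, a hairpin RNA gene, was at 72.5, 66.1 and 63.6 RPKM in FRT_1846, against 4.43, 4.39 and 3.59 in FRT_1764 and 2.99, 2.78 and 2.55 in FRT_1799, with a log2 difference of 3.96 ± 0.07 (adjusted p = 1.2e-09) from the mean of the other 2 groups. It overlaps the antisense gene CG32212. The unannotated gene FBgn0085281 was at 0.064, 0.0503 and 0.0422 RPKM in FRT_1846, against 13.6, 12.3 and 12.3 in FRT_1764 and 19.1, 19.2 and 20.1 in FRT_1799, nearly silent in FRT_1846. CG13032 had 524, 414 and 400.0 reads in FRT_1846 against 0 in all FRT_1799 libraries, at least 148-fold higher. Muc4B, a mucin gene on X, was at 25.8, 37.8 and 12.5 RPKM in FRT_1846, against 144, 144 and 177 in FRT_1764 and 439.8, 520.0 and 288 in FRT_1799. Mur11Da, another mucin-related gene on X, was at 13.6, 9.61 and 3.83 RPKM in FRT_1846, against 59.2, 98.4 and 98.1 in FRT_1764 and 203, 167 and 191 in FRT_1799. The 3 groups did not overlap for either gene, with FRT_1799 highest and FRT_1846 lowest.

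**Figure D5:**
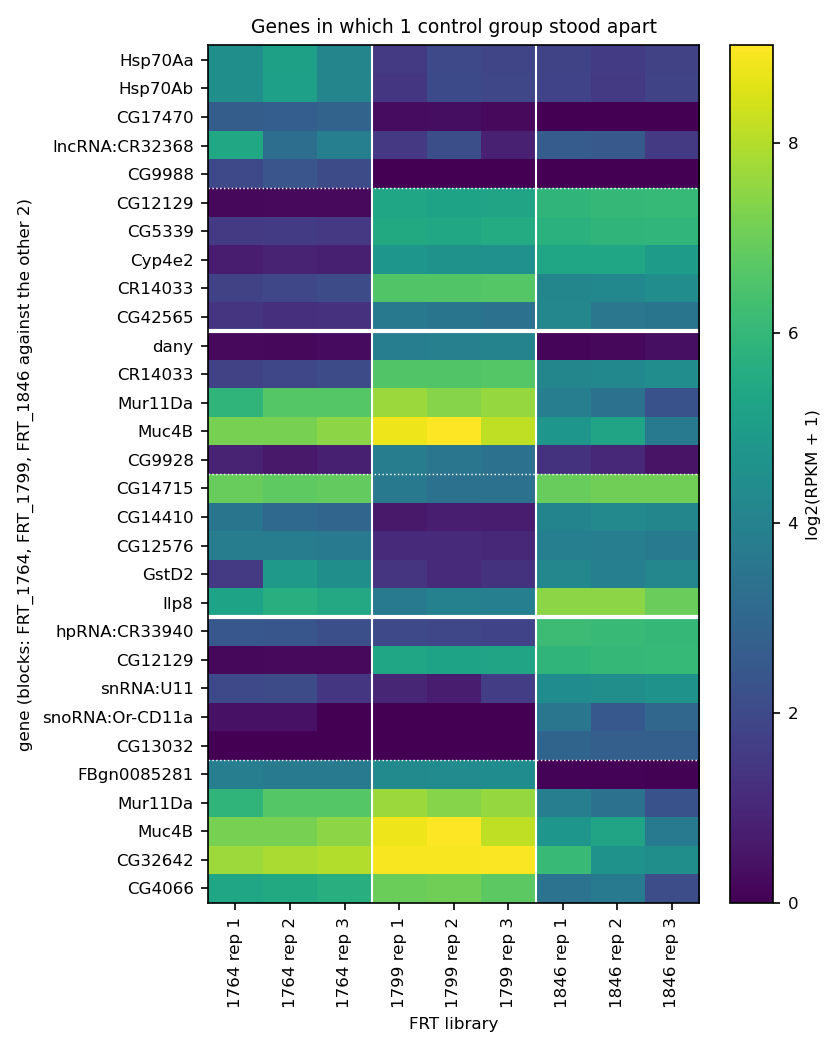
log2(RPKM + 1) of the genes named for each control group (5 with the highest and 5 with the lowest difference from the other 2 groups, separated by dotted lines), with 1 column per FRT library in the order FRT_1764, FRT_1799 and FRT_1846. CG12129 is dark in the 3 FRT_1764 columns, at 0.151 to 0.166 RPKM.

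Chromosome arms were called in different shares. At least 2-fold calls on 2L were 15.8% of all such calls on arms in FRT_1764 minus FRT_1799, 31.4% in FRT_1764 minus FRT_1846 and 28.1% in FRT_1799 minus FRT_1846, where 18.9% of tested genes lie on 2L. With the histone genes left out (a choice made after seeing the data), 2L held 15.8%, 21.4% and 19.8% of them, against 17.7% of tested genes. 2R held 23.98%, 15.7% and 15.8% of the calls in the same order of pairs with histones left out, against 20.1% of tested genes. X held 18.7%, 16.9% and 21.4%, against 17.6% of tested genes. No arm held most of the calls in any pair of groups.

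The genes that the mutant libraries of the series are named for encode subunits of SAGA, a histone acetyltransferase and deubiquitinase complex. Ada2b was at 45.4, 44.4 and 46.5 RPKM in FRT_1764, 53.9, 53.8 and 56 in FRT_1799 and 46, 51.7 and 55.2 in FRT_1846, with FRT_1764 and FRT_1846 overlapping. Atxn7 was at 9.57, 9.23 and 9.68 RPKM in FRT_1764, 7.59, 7.92 and 7.65 in FRT_1799 and 8.47, 9.29 and 9.34 in FRT_1846, with FRT_1799 below both other groups. not was at 13.5, 12.8 and 12.3 RPKM in FRT_1764, 9.15, 10.5 and 10.8 in FRT_1799 and 17.9, 21.4 and 24 in FRT_1846. The FRT_1846 values of not lay above the others, with a log2 difference of -0.98 ± 0.10 (adjusted p = 1.2e-05) for FRT_1799 minus FRT_1846. Of the 22 tested SAGA and ATAC genes, 4 were higher in FRT_1799 than in FRT_1846 and 14 were lower, where 34.1% of tested genes were higher and 44.0% lower. The eye colour transporter gene white (w) was at 2.28, 1.51 and 1.53 RPKM in FRT_1764, 5.48, 5.42 and 5.42 in FRT_1799 and 0.607, 0.71 and 0.529 in FRT_1846, with no overlap between groups, and differed by -1.23 ± 0.11 (adjusted p = 1.1e-05) for FRT_1764 minus FRT_1799 and 2.00 ± 0.11 (adjusted p = 2.9e-07) for FRT_1799 minus FRT_1846, or by 3.22 in limma voom on the reads.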

How the data were processed

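Polyadenylated RNA of ovaries was sequenced in 9 FRT control libraries, which were grouped by the experiment number in their titles (3 libraries each). The authors deposited 1 table of RPKM values for 15682 genes. The submitters' processing notes name CASAVA 1.8.2, TopHat2 2.0.13, edgeR 3.14.0 and the dm3 build, without their roles. The counter, the annotation and the strand setting are not given in the sources used here.

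The RPKM values deposited by the authors are whole reads divided by a length and a scaled library size: whole reads were recovered for 13903 genes (100% of their values, tolerance 0.01 reads), while another 1779 were listed at 0 throughout. The length spans the introns for 4775 of 10796 genes with introns, and was a median of 1.22 times the exonic length. The size factors were set within each experiment, and those of FRT_1846 lay at 0.902 to 0.971, which can shift all genes of a group together. Symbols and chromosome arms were taken from BDGP6.54 by gene ID (15002 matched, 680 did not), and no coordinates were carried over. No pair of libraries agreed within sampling noise (chi-square per degree of freedom of at least 8.84).

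Genes with a mean of at least 1 RPKM over the 9 libraries were tested with limma 3.58.1 (R 4.3.3) on log2(RPKM + 1), in 1 fit of the 3 groups with a trend in eBayes and no covariate, with Benjamini-Hochberg adjustment over all tested genes and a threshold of 0.05. A fold change on this scale understates the change of low genes. Where a group was at 0, folds were computed against 3 reads per library. Python 3.11.15 was used for tables and plots. The fit and the TMM step were tested on simulated data with known changes. Members and gene lists were chosen with earlier results of these data known, so lists are described by counts and medians beside those of all tested genes, with no test of a list.

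Named were the 20 genes with the highest mean RPKM, for each group the 5 highest and 5 lowest differences from the mean of the other 2 among called genes without overlap, for each list the 2 most abundant members and the 2 with the largest pairwise difference, and Ada2b, Atxn7, not and w. The text gives a part of these. Alternatives were another pseudocount (0.1), no minimum level or one of 5 RPKM, quantile, common median and TMM scaling, eBayes without a trend, a replicate block, 1 fit of all 18 libraries, fits of 6 libraries, limma voom on the reads, reads per kb of exon, and each library left out in turn. The columns of mutant libraries entered a fit only where all 18 libraries were fitted. Whole reads, gene lengths and library scales were recovered from all 18 columns.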

Additional observations from a re-analysis of the deposited data

How the results depend on the processing

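No difference of a named gene and no list median given in the report changed direction under an alternative that was run. The balance of all called genes did turn: with a common median, more were higher than lower in each of the 3 pairs (50.5%, 54.4% and 51%), and the median over all tested genes became 0.0058, 0.020 and 0.010. Of the values of single genes under alternatives, 551 of 565 stayed on the same side of the threshold. The exceptions were Cp7Fc, GstD2, Femcoat, AttA and fit. Femcoat (FRT_1764 minus FRT_1799) passed in 8 alternatives, among them a minimum of 5 RPKM (adjusted p = 0.0391, limma), and fit passed without the first FRT_1764 library (adjusted p = 0.0473). A minimum of 2-fold lowered the number of called genes from 6459 to 1178 over all groups, and left 373, 429 and 935 in the 3 pairs and 199, 550 and 511 for FRT_1764, FRT_1799 and FRT_1846 against the mean of the others. Of these, the 199 became 304 with a pseudocount of 0.1 and 127 with a minimum of 5 RPKM. By share of reads, 12 of the 20 most abundant genes stayed in the first 20. limma voom on the recovered reads called 5080, 4369 and 5736 genes in the 3 pairs.

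The list medians given here moved with the scaling or the pseudocount and kept their sign. Quantile normalization gave a yolk median of 1.42 (FRT_1799 minus FRT_1846) and ribosomal protein medians of 0.33, -0.25 and -0.53. With a common median the ribosomal values were -0.39 (FRT_1764 minus FRT_1846) and -0.98 (FRT_1799 minus FRT_1846), and with TMM, added after seeing the data, the first was -0.42. A pseudocount of 0.1 gave histone medians of -1.24 (FRT_1764 minus FRT_1846) and -1.97 (FRT_1799 minus FRT_1846). Without a fold minimum, 19.3% of the calls in FRT_1764 minus FRT_1846 lay on 2L. Leaving out 1 library gave 4506 to 5371, 3816 to 4777 and 5473 to 5910 calls in the 3 pairs.

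The deviations of libraries with the same replicate number from their group means correlated at -0.191 to 0.336. No correlations of libraries with different numbers were set beside these, so whether replicate numbers pair the libraries was not settled. In a fit with a replicate block 5042 genes were called in FRT_1764 minus FRT_1799, 4434 in FRT_1764 minus FRT_1846, 5801 in FRT_1799 minus FRT_1846 and 6444 in the F test (FRT groups overall), and fit (adjusted p = 0.0393) and Femcoat (adjusted p = 0.0492) passed in limma.

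With 3 libraries a group, low genes such as AttA and fit rest on few libraries, and a difference between controls cannot be assigned to the FRT chromosome, the culture or the library preparation. No group had enough libraries to look for a single outlying one.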
